A study of Mus musculus with 26 samples.

Results

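The set described here holds the 150 array probes, of 46237 scored, whose signal was most clearly lower in the thymocyte stages TN3b, TN4 and ISP than in both TN3a and DP, the stages before and after them. The score was the lower of the TN3a and DP stage means minus the highest of the TN3b, TN4 and ISP means, on log2 raw signal quantile-normalised over 15 of the 16 thymocyte arrays (without TN2 replicate 2), and the 150 highest scores were taken. The values of those 5 stages therefore chose the members, and they are given as a description with no test. Values of the other stages, ETP and TN2, and of the T cell acute lymphoblastic leukaemias (T-ALL) did not enter the choice. Of the 150 probes, 135 carry a gene symbol, of 113 different genes, and 16 of these genes have more than 1 probe in the set.

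The series compares mouse T-ALL with stages of normal T cell development on Illumina bead arrays, 26 in all. Normal thymocytes were all C57BL/6 and were defined by surface markers: ETP as lineage-CD44+CD25-Kit+ (2 arrays), TN2 as CD4-CD8-CD3-CD44+CD25+ (2), TN3a as CD44-CD25+CD28- (3), TN3b as CD25+CD28+ (2), TN4 as CD25-CD28+ (3), ISP as CD4-CD8+CD24+TCRbeta- (2) and DP as CD4+CD8+ (2). T-ALL came from Rag-proficient mice of strain F1(WB x B6/Ly5.1) (7 arrays) and from Rag-deficient C57BL/6 mice (3 arrays), so strain goes with Rag status. All material was taken in vivo. The labels give no age, sex or treatment and do not say which Rag gene is missing. Nothing in them ties the arrays to different mice or tumours, so the spread behind each p-value may be partly technical.

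T cell precursors alternate between rest and rapid division in the thymus. TN3a cells rearrange the T cell receptor beta gene, and a productive rearrangement gives the pre-T cell receptor, which drives beta-selection and a burst of division through TN3b, TN4 and ISP. DP cells then leave the cycle and rearrange the alpha gene. Resting lymphocytes are known to hold genes that restrain growth and division, and forkhead transcription factors of the FOXO family are known to switch on several of these when growth factor signalling through PI3K is low.

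Of the probes on each array, 34.74% to 46.35% were detected, except for 21.37% on TN2 replicate 2. That array also had the lowest mean correlation with the other arrays of its table (0.789 against 0.906 or above). TN2 stage values of single probes and of the members are those of replicate 1 unless both are given. Those of gene lists and marker lists are means over both TN2 arrays. A level below means log2 intensity after normexp background correction, with all arrays brought to the quantiles of the same 15 thymocyte arrays. The brighter Kit probe had a level of 12.17 in ETP, labelled Kit+, and 5.56 in DP, whose label does not name Kit. Il2ra, the gene of CD25, had 10.65 in TN3a and 4.87 in TN4, as their labels require. Cd3e RNA, at 10.41 and 10.6, was high in TN2, which is labelled CD3- by surface protein. Cd28, which divides TN3a from TN3b, is not given here. Of 3 Cd8b1 probes, 2 were highest in DP and 1, highest in ETP at 12.37, ran against the label.

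The members with the highest scores were 3 probes of Hsd11b1, the enzyme that regenerates active glucocorticoid inside cells (scores 2.45, 2.34 and 2.2), and Tsc22d3, the glucocorticoid-induced leucine zipper (2.08). Next came Scn4b, a beta subunit of voltage-gated sodium channels (1.95), Ypel3, a growth-suppressing gene (1.92), and Tec, a tyrosine kinase of antigen receptor signalling (1.89). An unnamed probe, ILMN_2513781 (1.88), Socs3, an inhibitor of cytokine signalling (1.8), and Wdr78 (1.78) complete the first 10. The median score was 1.03, and 79 members reached at least 1, a 2-fold difference. At the edge of the set, Anapc16, Ing4 and Kdm5b lay just inside and Zfp12, a second Btg1 probe and Tbc1d22a just outside, all with a score of 0.84.

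Promoters of the members were read from RefSeq (assembly GRCm38.p6), from 250 bases before to 50 bases after each gene's start, and 70 member genes had such a window. GTAAACA, the core letters bound by forkhead factors, searched on both strands, stood in 8 of these 70 windows (11.4%) and in 460 of 15007 windows of genes on the array (3.07%). With every listed window of a gene counted, the shares were 9 of 70 (12.9%) and 3.6%. The 8 genes were Hsd11b1, Ypel3, Txnip, Hbp1, Btg1, Frat2, Dnajc6 and Zfp874b. The 5 of these with the highest scores are shown here because they include the member with the highest score and 4 genes known to restrain growth or division. Each is written along its gene's strand with GTAAACA, or its reverse complement TGTTTAC, in capitals.
Hsd11b1: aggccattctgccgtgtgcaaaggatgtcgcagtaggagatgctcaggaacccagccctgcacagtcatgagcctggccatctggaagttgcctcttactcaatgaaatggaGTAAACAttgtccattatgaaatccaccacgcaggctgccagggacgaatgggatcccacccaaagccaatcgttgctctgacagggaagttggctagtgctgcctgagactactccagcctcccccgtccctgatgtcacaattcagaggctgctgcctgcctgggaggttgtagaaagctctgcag
Ypel3: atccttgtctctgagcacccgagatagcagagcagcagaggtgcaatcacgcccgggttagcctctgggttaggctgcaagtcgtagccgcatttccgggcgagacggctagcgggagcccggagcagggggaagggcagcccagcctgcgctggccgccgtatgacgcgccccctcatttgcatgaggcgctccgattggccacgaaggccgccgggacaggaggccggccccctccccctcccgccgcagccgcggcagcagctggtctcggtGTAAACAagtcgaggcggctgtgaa
Txnip: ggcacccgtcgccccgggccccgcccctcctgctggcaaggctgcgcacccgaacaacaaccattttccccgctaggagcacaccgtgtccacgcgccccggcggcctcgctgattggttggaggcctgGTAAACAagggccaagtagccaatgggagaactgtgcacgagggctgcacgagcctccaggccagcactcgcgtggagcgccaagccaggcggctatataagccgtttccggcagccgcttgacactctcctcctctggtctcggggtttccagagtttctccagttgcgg
Hbp1: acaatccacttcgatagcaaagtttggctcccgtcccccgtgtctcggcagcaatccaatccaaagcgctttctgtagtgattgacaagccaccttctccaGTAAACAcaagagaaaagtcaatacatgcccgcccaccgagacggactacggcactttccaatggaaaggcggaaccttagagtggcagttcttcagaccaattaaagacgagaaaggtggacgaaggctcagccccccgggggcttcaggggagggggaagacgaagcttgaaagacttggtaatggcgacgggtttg
Btg1: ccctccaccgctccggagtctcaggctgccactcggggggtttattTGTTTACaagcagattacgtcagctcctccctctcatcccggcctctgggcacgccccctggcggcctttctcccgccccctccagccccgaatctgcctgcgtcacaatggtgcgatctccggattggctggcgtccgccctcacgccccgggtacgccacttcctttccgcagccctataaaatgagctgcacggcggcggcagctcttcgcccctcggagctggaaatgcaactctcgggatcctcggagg
These windows lie at chr1:193242311-193242610 (minus strand), chr7:126776713-126777012 (plus), chr3:96557707-96558006 (plus), chr12:31950196-31950495 (minus) and chr10:96616751-96617050 (plus). The match begins 138 bases before the start of Hsd11b1, 121 before that of Txnip, 149 before that of Hbp1 and 204 before that of Btg1, and at base 26 after the start of Ypel3. Among the motifs searched on both strands, GTAAACA had the highest ratio of the member share to the share of all windows. In percentage points CACCTG and CAGCTG differed nearly as much. CAGCTG stood in 22.9% of member windows and 15.5% of all, CACCTG in 27.1% and 18.9%, CCGGAAGT in 10% and 5.7%, TGTGGT in 17.1% and 14.2%, CCAAT in 42.9% and 38.6%. AGATAA (10% and 9.56%), TTTGAA (15.7% and 15.4%) and TGACGTCA (2.86% and 2.51%) were close, and TTTCGCGC stood in 0 of 70 and 0.473%. No motif's letters hold those of another on either strand, though a window may hold several motifs. The median GC content was 60.2% in member windows and 57.3% in all. A match is a description of the letters and says nothing of binding, and no test was made.

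Across the stages the 150 members had a median level of 9.93 in TN3a, 8.1 in TN3b, 8.38 in TN4, 8.34 in ISP and 10.31 in DP, as the choice requires. The lowest of the low stages was TN3b for 74 members, ISP for 49 and TN4 for 27, and 109 members were higher in DP than in TN3a. On the scale of the score, every TN3a and DP array lay above every TN3b, TN4 and ISP array for 141 members, as for 873 of all probes. In the low stages 143 members were still detected on all 7 arrays, and none was undetected on all of them. In bulk RNA, fewer cells of a type and less RNA per cell cannot be told apart.

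**Figure D1:**
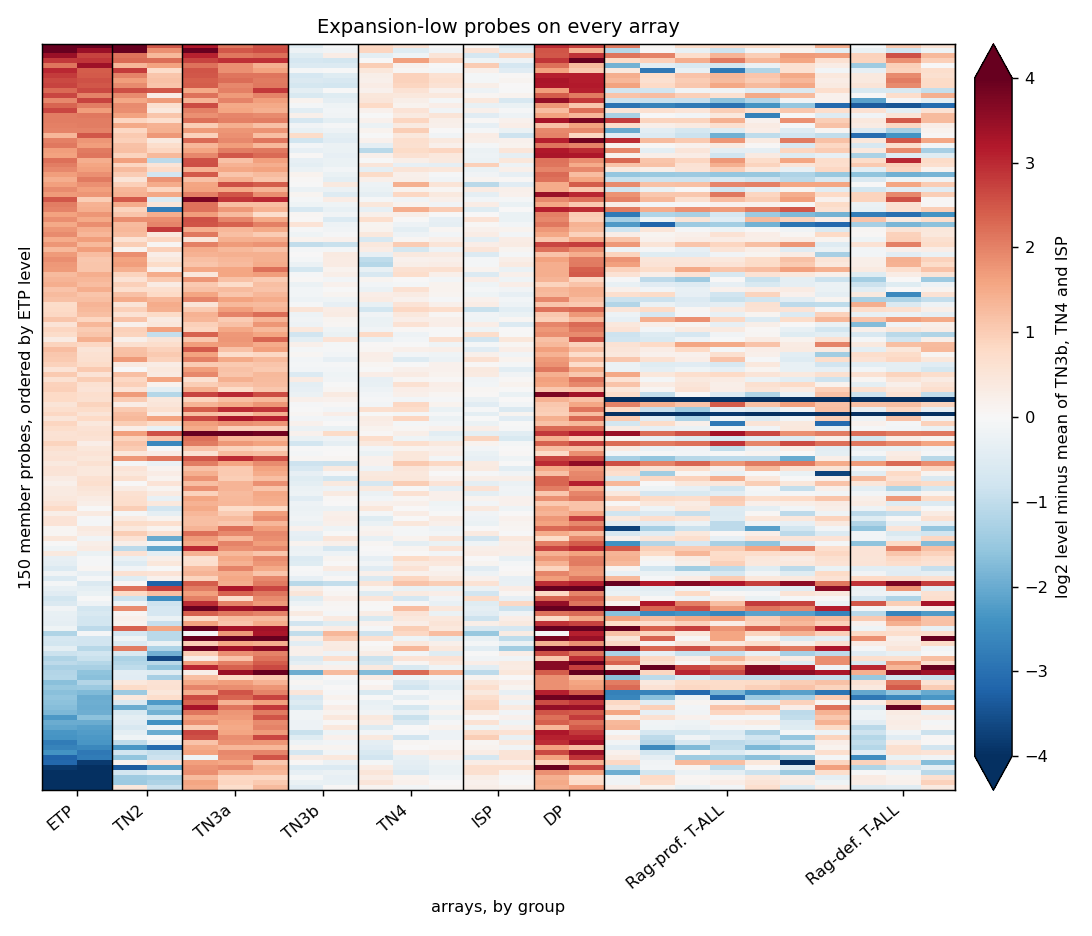
Each row is 1 of the 150 member probes, ordered by its level in ETP minus the mean of the low stages, and each column is 1 array, grouped by stage or tumour. Colour gives the log2 level minus the mean of TN3b, TN4 and ISP, cut at -4 and 4. TN3a and DP columns are red throughout by the rule, ETP runs from red to blue, and the tumours are mixed.

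The same measure was read for other choices of probes, on arrays that had not made each choice. All these arrays together chose the 150 members, so the readings describe those other choices and are no test of the set. When 150 probes were chosen on slides 4 to 6 alone, all 150 had a score above 0 on slide 7, where 15% of all probes did, with a median of 0.97 against -0.12. When they were chosen on slide 7 alone, 126 (84%) had a score above 0 on slides 4 to 6, where 12.4% of all probes did, with a median of 0.71. These choices shared 118 and 92 probes with the set. Fewer arrays carried each reading, and slide 5 holds only DP replicate 1.

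**Figure D2:**
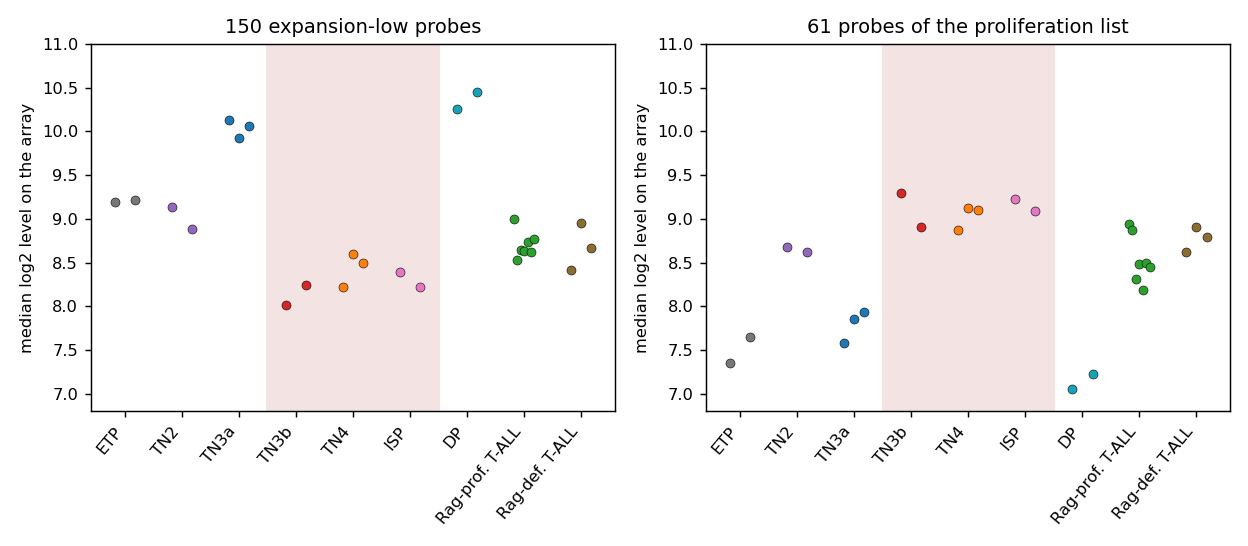
Median log2 level on each array (points) of the 150 members, left, and of the 61 detected probes of a proliferation gene list, right, by stage and tumour group. TN3b, TN4 and ISP are shaded. The list is low in ETP, TN3a and DP, where the members are high, and the members' tumour medians lie between 8.42 and 9.

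A proliferation list held 29 genes with a probe, among them Mki67, Top2a, Ccnb1 and the Mcm genes. The list had no gene in the set and none with a score above 0, against 14.2% of all probes. Its median level was 7.79 in TN3a, 9.1 in TN3b, 9.03 in TN4, 9.16 in ISP and 7.14 in DP, so the list was high in the 3 stages where the members were low. Outside those stages it was 7.5 in ETP and 8.65 in TN2 (8.68 on replicate 1), and in the tumours it was 8.53 with Rag and 8.77 without. The members' median level was 9.17 in ETP, 9.14 in TN2, 8.82 in Rag-proficient and 8.64 in Rag-deficient T-ALL. ETP, which had the lowest proliferation level after DP, thus lay above the low stages for the members, as did TN2, whose proliferation level lay nearer that of the low stages.

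Hsd11b1 and Tsc22d3 both belong to the biology of glucocorticoids, hormones known to kill DP thymocytes. Hsd11b1 (ILMN_3115917, chromosome 1) had levels of 6.14 and 5.28 on the ETP arrays, 8.68 and 7.91 in TN2, 10.4, 9.65 and 9.7 in TN3a, 6.47 and 6.61 in TN3b, 6.27, 7.32 and 6.76 in TN4, 5.68 and 5.64 in ISP, and 10.88 and 10.77 in DP. It was thus at its lowest in ETP and ISP and peaked on both sides of the expansion, TN3a being 8.78-fold and DP 16.47-fold above the highest low stage on the level scale. Another Hsd11b1 probe outside the set was dim, at 5.72 in TN3a and 7.53 in DP against 4.22 to 4.57 in the low stages. Tsc22d3 differed from Hsd11b1 in the earliest cells: its levels were 11.68 and 10.92 in ETP, 10.37 and 9.51 in TN2, 11.28, 10.32 and 10.42 in TN3a, 7.73 and 8.52 in TN3b, 7.83, 8.05 and 8.72 in TN4, 7.55 and 9.07 in ISP, and 10.7 and 11.09 in DP. ETP was its highest stage.

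Genes known to restrain growth and division were the next group. Of a quiescence and antiproliferation list of 33 genes, 6 were members (Tsc22d3, Ypel3, Txnip, Ypel5, Pik3ip1 and Btg1) and 17 had at least 1 probe with a score above 0. These genes have 65 probes, and a gene with several probes has more ways to be counted. Of all probes, 14.2% had a score above 0. Ypel3 read 12.5 and 12.53 in ETP, 12.37, 12.58 and 12.57 in TN3a, 9 and 8.93 in TN3b, 9.68, 11.3 and 10.59 in TN4, 9.5 and 9.47 in ISP, and 12.53 and 13.81 in DP. Its levels in ETP and TN3a were alike and TN4 was the least low and most variable of the low stages. Txnip, which restrains glucose uptake, read 11.31 and 11.05 in ETP, 11.57, 11.21 and 11.42 in TN3a, 8.5 and 8.85 in TN3b, 9.45, 9.97 and 9.69 in TN4, 9.51 and 9.47 in ISP, and 12.4 and 13.14 in DP. Hbp1, a repressor of cell cycle genes and a member outside the list, had 4 probes in the set and the same order of low stages on all 4: TN3b lowest, then ISP, then TN4. Btg1, an antiproliferative gene, read 9.3 and 9.25 in TN3b, 10.29, 11.16 and 10.95 in TN4 and 10.45 and 10.1 in ISP, against 12.15, 11.69 and 11.99 in TN3a and 13.09 and 13.66 in DP. TN3b was thus the lowest of its stages, below ETP (10.49 and 10.71) as well. Ypel5, a relative of Ypel3 with 2 member probes, read 9.15 and 9.22 in ETP, 9.31 to 9.96 in TN3a, 6.95 to 8.29 in the low stages, and 10.91 and 10.47 in DP on the first. Pik3ip1, an inhibitor of PI3K, read 10.61, 9.7 and 9.87 in TN3a and 6.7 to 7.13 on the 7 arrays of the low stages, and DP, at 8.78 and 9, was lower than TN3a. Pik3r1, a regulatory subunit of PI3K named after its values were seen, was a member with 2 probes, at 10.63 in TN3a, 9.1 to 9.44 in the low stages and 11.14 in DP for the first of them.

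**Figure D3:**
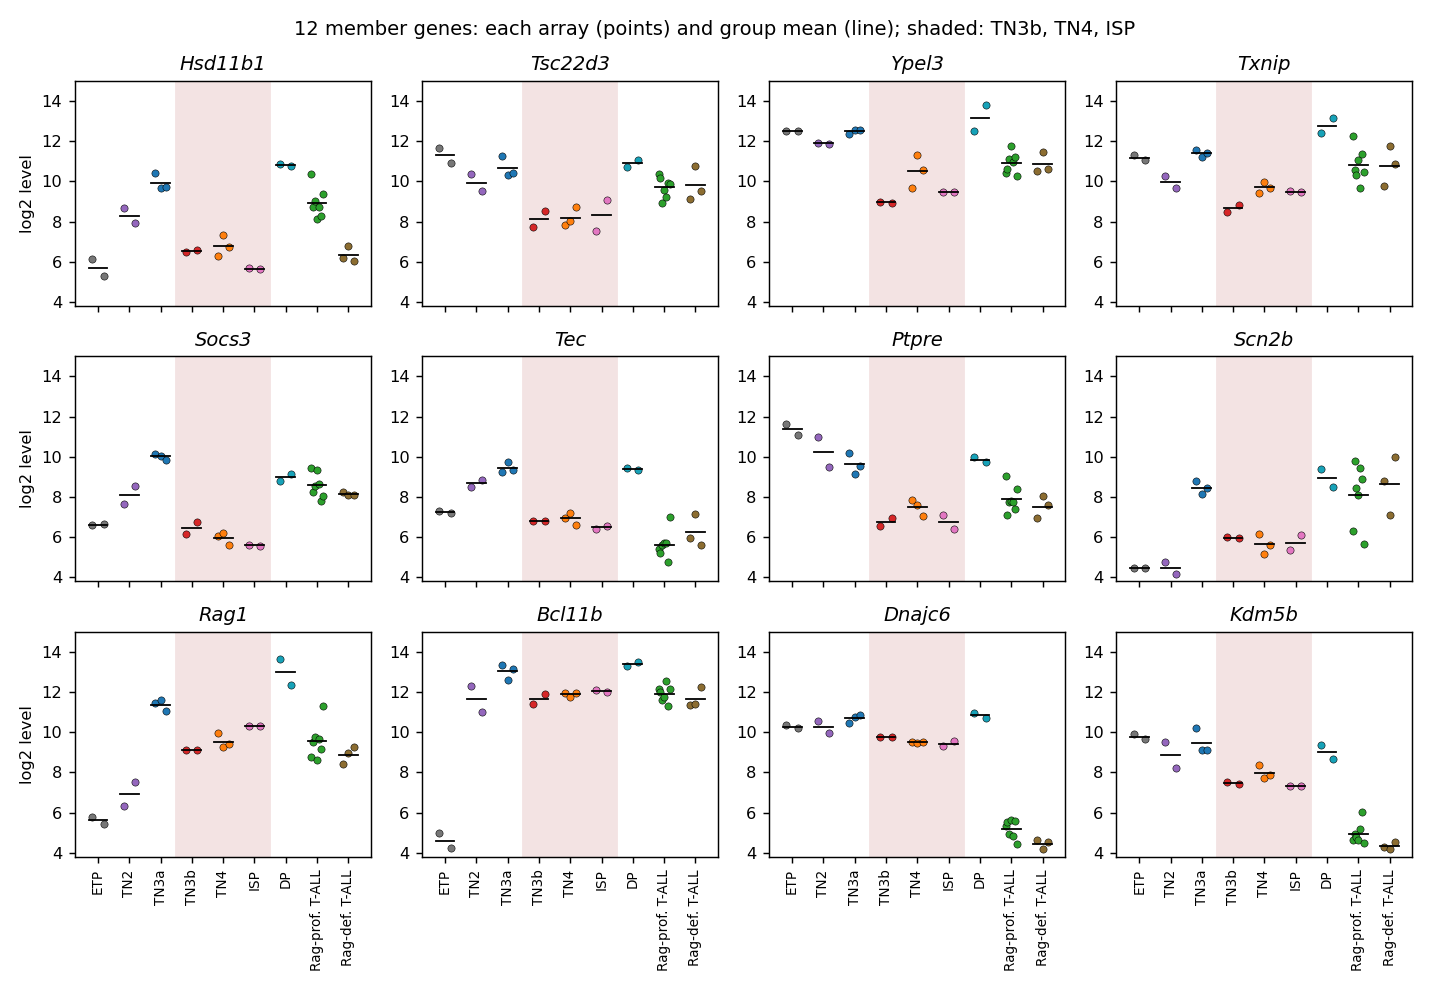
Log2 level of 12 member genes (probe with the highest score) on each array (points) with the group mean (line), by stage and tumour group. TN3b, TN4 and ISP are shaded, and the TN2 line is the mean of both arrays. Txnip and Ypel3 are also high in ETP, Rag1 and Bcl11b are low there, and Dnajc6 and Kdm5b are lowest in the tumours.

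Socs3 read 6.59 and 6.64 in ETP, 7.64 and 8.55 in TN2, 10.14, 10.06 and 9.86 in TN3a, 5.58 to 6.75 on the 7 arrays of the low stages, and 8.82 and 9.14 in DP, so it peaked in TN3a. Tec read 7.32 and 7.21 in ETP, 9.23, 9.75 and 9.32 in TN3a, 6.41 to 7.22 in the low stages, and 9.42 and 9.36 in DP. Ptpre, a receptor-type tyrosine phosphatase, was highest in ETP (11.65 and 11.09) and lay at 6.39 to 7.84 in the low stages and 9.99 and 9.73 in DP. Bmf, a pro-apoptotic gene, read 5.99 and 6.5 in ETP, near its levels in the low stages (5.49 to 6.7), and 8.83 and 9.11 in DP.

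A further group is best known from other tissues. Scn4b was detected on neither ETP array and read 10.43, 9.46 and 9.64 in TN3a, 4.17 to 6.18 in the low stages, and 8.96 and 8.63 in DP. Scn2b, another sodium channel beta subunit, was likewise undetected in ETP, and read 8.8, 8.15 and 8.43 in TN3a and 9.41 and 8.52 in DP. Spo11, which makes the DNA breaks of meiotic recombination, was a member only on the stage means: its TN3a arrays read 6.58, 9.79 and 11.15 and its DP arrays 8.76 and 13.59, and TN4 replicate 2, at 8.6, lay above a TN3a array. Its lowest TN3a and DP values were those of slides 4 and 5.

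Genes that define the T cell line made up the last group. Rag1, which cuts DNA for antigen receptor recombination, read 5.78 and 5.43 in ETP, 6.33 and 7.52 in TN2, 11.45, 11.59 and 11.07 in TN3a, 9.1 and 9.11 in TN3b, 9.96, 9.24 and 9.4 in TN4, 10.33 and 10.31 in ISP, and 13.64 and 12.34 in DP. ETP and TN2 were thus below the expansion stages. It was the only member of a recombination list of 11 genes with a probe, of which 4 had a score above 0, and the Rag2 probe had a score of 0.16. These 11 genes have 14 probes, and 14.2% of all probes had a score above 0. Bcl11b, a T-lineage commitment factor, read 4.97 and 4.24 in ETP and 11.41 to 13.5 on all arrays from TN3a to DP. Cd3e, a signalling chain of the T cell receptor complex, behaved alike, with 5.47 and 4.58 in ETP and 11.55 to 13.43 from TN3a to DP. Of the other fixed lists, receptor signalling held 1 member of 19 genes (Cd3e), lineage transcription factors 1 of 24 (Bcl11b), survival 1 of 8 (Bmf), interferon response 1 of 18 (Ifi27), and GIMAP genes 1 of 7 (Gimap1). The Notch (11 genes), migration (13) and autophagy (14) lists held none.

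The label "low only during expansion" did not hold for every member. The choice itself made TN3b, TN4 and ISP low, which favours other stages lying above them. The counts here were not taken over all probes, so they are a description with no test. ETP lay above the highest of TN3b, TN4 and ISP for 99 members and below the lowest of them for 40, and TN2 lay above for 105 and below for 30. Both were above for 94 members, and neither for 40. Where ETP or TN2 lay below the low stages, those stages were not the lowest point of development. Ptpre, an unnamed probe (ILMN_1247199) and Tsc22d3 stood highest in ETP relative to the mean of the low stages, and Bcl11b, Cd3e and Aqp11 lowest.

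**Figure D4:**
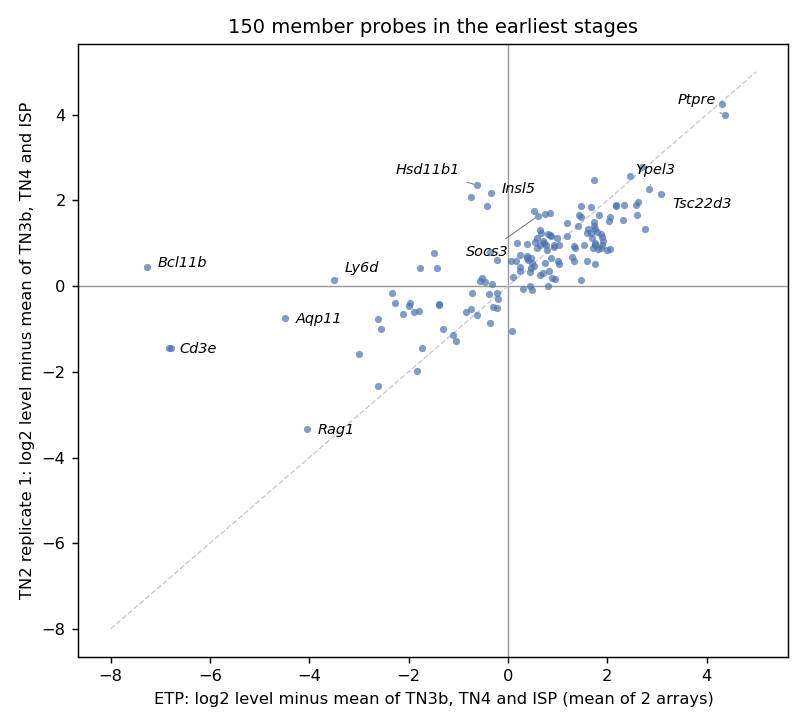
Each point is 1 of the 150 member probes, placed by its log2 level in ETP (mean of 2 arrays) and in TN2 replicate 1, both minus the mean of TN3b, TN4 and ISP. Most points lie above 0 on both axes, Bcl11b and Cd3e lie far to the left and above the dashed line of equal values, and Rag1 is low in both.

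TN2 against ETP, which asks what changes at entry into the T cell line, was tested with limma over 24735 probes on all 16 thymocyte arrays, and 2.24% of probes had an adjusted p under 0.05. Of the 150 members, 17 did (11.3%), 15 higher in TN2 (0.736% of all probes were) and 2 lower (1.5%). The members were brighter than most probes, with a median level of 9.14 against 4.38 over all probes in TN2. The part of brightness in these shares was not tested. These are counts of probes, and some, such as both Cd3e probes, belong to 1 gene. The members' median difference was -0.14 and that of all probes -0.08, close to each other beside the sizes of the called changes. With median scaling 125 probes passed, 3 higher and 122 lower, against 182 higher and 371 lower here. The largest rises were those of the T-lineage genes: Bcl11b read 12.32 and 11.02 in TN2 against 4.97 and 4.24 in ETP (log2 difference 7.06, SE 0.4, adjusted p = 4.98e-07, limma). Cd3e read 10.41 and 10.6 against 5.47 and 4.58 (5.48, SE 0.35, adjusted p = 1.3e-06, limma). Neither gene's groups overlapped, and each of these probes was detected on only 1 of the 2 ETP arrays. Aqp11, an aquaporin, rose by 3.95 (SE 0.33), Ly6d, a lymphoid surface protein, by 3.85 (SE 0.3) and Insl5, a relaxin-family peptide named after its values were seen, which neither ETP array detected, was at least 6.52-fold higher. A dimmer Aqp11 probe outside the set, at 2.22 (SE 0.93), did not pass (adjusted p = 0.293, limma). A Bcl11b probe outside the set gave 6.62 (adjusted p = 1.18e-07, limma). Dimmer Bcl11b probes outside it, at 1.75 and 1.59, did not pass (adjusted p = 0.344 and 0.33, limma).

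Among the members with the highest scores, Hsd11b1 rose by 2.58 (SE 0.4, adjusted p = 0.00313, limma) on 1 probe, while its other 2 probes, at 1.03 and 1.17, did not pass. Wdr78 (2.34), ILMN_2513781 (2.24), Socs3 (1.48, adjusted p = 0.0321, limma) and Tec (1.42, adjusted p = 0.011, limma) also rose. Sytl3 and Fbxl12, named after their values were seen, rose on 2 probes each. The other Fbxl12 member probes, at 1.1 and 0.36, did not pass (adjusted p = 0.301 and 0.827, limma). The 2 lower members were a Txnip probe, with 8.93 and 8.73 in TN2 against 10.12 on both ETP arrays (-1.29, SE 0.27, adjusted p = 0.0225, limma), and an Hbp1 probe (-1.19, SE 0.27, adjusted p = 0.0388, limma). The other Txnip probe fell short of the threshold at -1.2, and Ypel3, at -0.61, and Tsc22d3, at -1.36, did not pass either.

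These calls moved with single arrays and with the scaling. Without that array 13 members passed, all higher, and without TN2 replicate 1, when the dim array stands alone for TN2, 50 passed, 20 higher and 30 lower, while the count over all probes went from 553 to 5492. Without ETP replicate 1 or 2, 10 passed, all higher, and with median scaling in place of quantiles 0 did. With slide as a block, which sets ETP against TN2 within slides 4 and 6, 22 members passed, 18 higher and 4 lower, but the Hbp1 probe named did not (adjusted p = 0.0574, limma). Within slide 4 and within slide 6, each with 1 array of either stage, all 17 called members kept their direction. The members were called on these same arrays, so this is a description and no further support. Markers of other cells moved with these stages: the myeloid list (11 probes, Mpo among them) had a median level of 9.13 in ETP, 6.7 in TN2 and 4.2 to 4.33 in all later stages, and the erythroid list (15 probes, haemoglobin genes among them) 10.16, 11.38 and 4.35 to 4.69. On TN2 replicates 1 and 2 the myeloid median was 7.52 and 5.88, and the erythroid median 11.54 and 11.22. The dendritic list (10 probes) had a median level of 6.41 in ETP and 4.58 in TN2, with 4 to 5 and 2 of 7 genes detected, summed linear levels of 1034 to 1349 and 648 to 1248, and 2 of 7 tested probes lower in TN2. Of 7 myeloid genes, 6 were detected on each ETP array and 4 on each TN2 array, with summed linear levels of 29115 to 38276 and 4206 to 7118. Of 5 erythroid genes, 2 to 3 and 1 to 2 were detected, with summed levels of 11273 to 15867 and 26824 to 35941. Their part in these differences was not tested.

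In the tumours the set lay close to its level in the expansion stages. Per tumour, the median over members of the level minus the mean of TN3b, TN4 and ISP was 0.03 to 0.43 in the 7 Rag-proficient T-ALL and -0.11, 0.47 and 0.24 in the 3 Rag-deficient ones, against 1.57 to 1.65 on the TN3a arrays and 1.83 and 2 on the DP arrays. Over all probes this median was -0.04 or -0.03 in every tumour. The mean of each tumour group was above the highest low stage for 73 members and below the lowest for 47 (Rag-proficient) and 50 (Rag-deficient). It reached the lower of TN3a and DP for only 7 members in each. Members thus lay on both sides of the low stages in the same tumours. The members were chosen as low in those stages, so these values are a description with no test. The counts were not taken over all probes. Tumours and thymocytes share no slide and no table, so batch and tissue cannot be told apart.

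Rag1, as a check of the labels, read 8.44, 8.94 and 9.28 in the Rag-deficient tumours and 8.63 to 11.29, with a median of 9.53, in the Rag-proficient ones, and Rag2 had a mean level of 5.23 and 5.49. The labels name neither the missing gene nor where the probes lie relative to the deletion, so these values check nothing. The highest Rag1 level was that of Rag-proficient replicate 7, the only Rag-proficient tumour on the slide of the Rag-deficient ones.

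Between the tumour groups, limma over 22951 probes on the 10 T-ALL arrays called 0.344% of probes, 0.0828% as higher and 0.261% as lower without Rag. Of the members, 3 passed (2%), all lower and all probes of Hsd11b1. Hsd11b1 (ILMN_3115917) ranged from 8.11 over a median of 8.72 to 10.38 in the 7 Rag-proficient tumours and read 6.17, 6.8 and 6.04 in the Rag-deficient ones, with no overlap. The log2 difference was -2.61 (SE 0.42, adjusted p = 0.0318, limma), and the other 2 member probes gave -2.48 (adjusted p = 0.0428, limma) and -2.54 (adjusted p = 0.0291, limma). The dim probe outside the set, at -0.42 (adjusted p = 0.681, limma), did not pass. The Rag-deficient mean of 6.34 lay within the means of the expansion stages (5.66 to 6.78), and the Rag-proficient mean of 8.94 between those and TN3a (9.92), with Rag-proficient replicate 1, at 10.38, above the TN3a mean. Strain differs between the groups, and its part and that of Rag status cannot be told apart.

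The Hsd11b1 difference kept its direction but not its call in other fits. Within slide 3, which holds all 3 Rag-deficient tumours and Rag-proficient replicate 7, the 3 probes differed by -3.05, -3.04 and -3.11, and with slide as a block the adjusted p was 0.113, 0.11 and 0.11 (limma). No member passed (limma) with slide as a block, without background correction, without the filter on dim probes, or when Rag-proficient replicate 2, 3 or 5 or Rag-deficient replicate 1, 2 or 3 was left out. At an unadjusted p under 0.05, 17 of the 150 members passed, as did 2219 of all 22951 probes.

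Both tumour groups were set against ETP, whose values did not choose the members, with limma over 28736 probes on all 26 arrays. Tumours and thymocytes share no slide and no table, so batch and tissue cannot be told apart, and both comparisons share the 2 ETP arrays. In Rag-deficient T-ALL 72 members passed (48%, against 17.9% of all probes), 29 higher (8.77% of all probes were) and 43 lower (9.15%). In Rag-proficient T-ALL 87 passed (58%, against 23.8%), 37 higher (11.4%) and 50 lower (12.4%). The members were brighter than most probes, with a median level of 9.17 against 4.4 over all probes in ETP, and the part of brightness in these shares was not tested. The median difference was -0.5 and -0.59 for members against 0.04 and 0.03 for all probes. With median scaling it was 0.2 and 0.03 against 0.3 and 0.23, and 44 and 51 members passed, 30 and 35 of them higher, so the balance of directions depends on the scaling. Over all probes the split moved from 2521 higher and 2630 lower to 3061 and 1033 in Rag-deficient T-ALL, and from 3274 and 3574 to 3656 and 1366 in Rag-proficient T-ALL.

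Of the members far below ETP in the tumours, Dnajc6, Kdm5b, Cd79b and Exoc6b had tumour means below those of every thymocyte stage, and Ptpre, at 7.9 and 7.53, lay just above the low stages. Dnajc6, the clathrin-uncoating factor auxilin, read 10.36 and 10.19 in ETP, 9.31 to 10.94 on all later thymocyte arrays, 4.43 to 5.62 (median 5.32) in Rag-proficient T-ALL and 4.61, 4.19 and 4.52 in Rag-deficient T-ALL. The difference from ETP was -5.1 (SE 0.25, adjusted p = 4.01e-12, limma) and -5.84 (SE 0.28, adjusted p = 6.68e-12, limma), and its second probe gave -5.04 and -6.07. Kdm5b, a histone demethylase, read 9.92 and 9.64 in ETP, 4.48 to 6.04 in Rag-proficient T-ALL (-4.83, SE 0.36, adjusted p = 3.59e-09, limma), and was detected in none of the Rag-deficient tumours, which puts this probe at least 41.1-fold lower there. A dimmer Kdm5b probe outside the set differed less, by -2.3 in Rag-proficient and -2.46 in Rag-deficient T-ALL. Cd79b, known as a B cell receptor chain, differed by -4 and -3.28, Exoc6b, an exocyst subunit, differed by -3.29 and -4.42, and Ptpre by -3.47 and -3.85, in Rag-proficient and Rag-deficient T-ALL. An Exoc6b probe outside the set, dim in every group, did not pass in either (0.13 and 0.04). Of the 4 B cell genes with a probe, Cd79b among them, 1 to 2 were detected on the ETP arrays, 2 to 4 in Rag-proficient and 2 to 3 in Rag-deficient tumours. Their summed linear level was 1233 to 1379 in ETP, 118 to 238 and 183 to 245, while Pax5 and Ms4a1 had means of 4.24 and 4.48 in ETP, near the median of all probes. Most of the ETP sum was Cd79b itself, whose probes read 9.84 and 8.29 there, so the sum largely repeats the Cd79b difference. The part of B cells was not tested.

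The largest differences above ETP were those of Cd3e and Bcl11b. Cd3e differed by 7.06 and 7.3, Bcl11b by 7.32 and 7.07, and Rag1 by 3.94 (SE 0.48) and 3.28 (SE 0.55), in Rag-proficient and Rag-deficient T-ALL, each with no overlap and an adjusted p of 0.000222 or below (limma). Aqp11 was higher by 3.78 and 4.09 on its member probe. A dimmer Aqp11 probe outside the set, at 0.14 and 0.09, did not pass (adjusted p = 0.906 and 0.963, limma). Bcl11b probes outside the set were higher by 6.76, 2.51 and 3.97 in Rag-proficient and by 6.39, 2.36 and 3.99 in Rag-deficient T-ALL. Spo11 read 7.19 to 10.51 (median 9.61) in Rag-proficient T-ALL and 7.75, 10 and 9.74 in Rag-deficient T-ALL, against 5.18 and 4.72 in ETP. Its differences of 4.42 (adjusted p = 0.0126, limma) and 4.22 (adjusted p = 0.0429, limma) did not pass when either ETP array was left out. The Rag-deficient call was lost in 9 of 15 alternatives in all, among them slide as a random block (adjusted p = 0.0655, limma), no background correction (adjusted p = 0.123, limma), and leaving out Rag-deficient replicate 2 or 3. Scn2b, undetected in ETP, was at least 12.2-fold and 17.8-fold higher on its brighter probe. Scn4b, also undetected in ETP, passed in Rag-deficient T-ALL (at least 6.83-fold higher, on values of 7, 5.37 and 9.32) and not in Rag-proficient T-ALL (at least 2.36-fold, adjusted p = 0.249, limma), and the difference between the tumour groups did not pass (1.53, adjusted p = 0.577, limma). Hsd11b1 was above ETP in Rag-proficient T-ALL on all 3 member probes (3.23, 3 and 3.41) and did not pass in Rag-deficient T-ALL (0.63, 0.52 and 0.87).

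The growth-restraining genes split in the tumours. Ypel3 was lower than in ETP (-1.6, SE 0.38, adjusted p = 0.00386, limma, in Rag-proficient, and -1.63, SE 0.43, adjusted p = 0.0117, limma, in Rag-deficient T-ALL), and so were 3 of the 4 Hbp1 probes. Tsc22d3 was lower in Rag-proficient T-ALL (-1.58, adjusted p = 0.0154, limma) and just missed the threshold in Rag-deficient T-ALL (-1.5, adjusted p = 0.051, limma). Its difference between the tumour groups was 0.08 (SE 0.38). The 2 Ypel5 probes disagreed, at -0.42 and 1.73 in Rag-proficient T-ALL, where only the second passed (adjusted p = 0.0182, limma). Btg1 was higher in both (1.57, SE 0.25, adjusted p = 0.000106, and 1.46, SE 0.29, adjusted p = 0.00113, limma), with every tumour, at 11.61 to 12.7, above both ETP arrays, at 10.49 and 10.71. Trp53inp1, a p53-induced regulator of growth named after its values were seen, was also higher in both (1.38 and 1.48). Txnip, at -0.37 and -0.39, and Pik3ip1, at -0.59 and -0.57, did not pass. Of the 55 tested probes of the whole quiescence list, 14 passed upwards and 9 downwards with Rag (median 0.11), and 7 and 5 without Rag (median 0.16).

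Leaving out ETP replicate 1 or 2 left 47 and 52 members called in Rag-deficient and 63 and 63 in Rag-proficient T-ALL. Blood cell markers moved with the tumours: the erythroid list had a median level of 14.18 and 13.97 in Rag-proficient and Rag-deficient T-ALL against 10.16 in ETP, with all 5 genes detected on every tumour array. Its summed linear level was 203062 to 242774 and 180738 to 207392. The myeloid list had 7.43 and 7.09 against 9.13, with 6 of 7 genes detected and summed levels of 3539 to 8104 and 1822 to 4697. The dendritic list had 6.93 and 6.95 against 6.41, with summed levels of 1360 to 5587 and 2033 to 4047. The NK list, with only 2 probes, had 5.93 and 5.24 against 8.54, with summed levels of 110 to 419 and 86 to 106 against 4998 to 6124 in ETP. Their part in the comparisons with ETP was not tested.

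Tumours of the Rag-proficient group differed most in Ly6d (SD 2.46), 2210013O21Rik (SD 1.64), and Scn2b (SD 1.57). Scn2b ranged from 5.64, near its low stages, to 9.8, above TN3a. The steadiest members detected in all 7 tumours were 2010009J12Rik (SD 0.12), 9130415E20Rik (SD 0.14) and Zfp874b (SD 0.15). In all 10 tumours 134 members were detected.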

How the data were processed

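Illumina bead arrays measured RNA levels in 10 T-ALL and 16 thymocyte samples from mice. Per the labels' protocols, RNA was isolated with RNAzol B and labelled with an Ambion MessageAmp kit. Samples were sorted or taken straight from cell suspensions, and which is not given per sample. The authors deposited probe intensity on a linear scale, not normalised as the values show, in 1 table of 46089 probes for T-ALL and 1 of 46237 for thymocytes, with a detection p-value per intensity per the file headers. A further deposited table joins both as log2 values, used only as an alternative, because its thymocyte columns match the intensities by row position and not by probe ID. The scanner software is not given in the sources used here.

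The T-ALL detection p-values are 2-sided (99.74% to 100% of the dimmest 5% of probes are under 0.01) and were made one-sided around the median intensity of probes with p above 0.95. Detected means a one-sided p under 0.01. Intensities were corrected by normexp from detection p-values (offset 16), log2-transformed and brought to the quantiles of the 15 thymocyte arrays left without TN2 replicate 2, whose signal was dim. Fold changes are on this scale, which understates changes of dim probes. Tests used limma 3.58.1 in R 4.3.3 (lmFit, eBayes, two-sided, Benjamini-Hochberg over all probes detected on at least 3 arrays for T-ALL alone and 2 otherwise). The number of arrays limits the precision. The tests and the rule were tested on simulated data. A fold against a group with no detected array is a bound from the lowest detected signal per array.

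Symbols came from GEO's platform annotation, updated by Entrez ID (28519 probes) or accession (2634), as listed there (4514) or none (10570). Different probes of a gene are kept apart, and levels of different probes are not compared. Members, gene lists and tests were chosen with earlier results of these data known. Named genes are the 10 highest scores, the probes at the edge, the 5 largest called changes per direction and comparison, the 3 most and least variable among Rag-proficient tumours, the extremes in ETP, and members of the lists. The text marks genes named outside this rule after their values were seen, and Frat2 and further probes of a named gene are likewise outside it. Marker lists for dendritic, NK, thymic epithelial and mature T cells held 0 members. Replicates are numbered in accession order.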

Additional observations from a re-analysis of the deposited data

Results flagged for a closer look

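Of 42 values read over the 7 Rag-proficient tumours, the levels of the named members and the set's median, 3 had 1 tumour whose gap to the rest, as a share of the range, exceeded Dixon's critical value of 0.568, where chance would give about 1 in 20. Some members were named for their spread over these same tumours, Ly6d and 2010009J12Rik among them, and some are probes of one gene. That rate therefore does not strictly apply here. Ly6d was at 5.93 in replicate 6, against 11.41 to 12.84 in the other 6 tumours, and its level in ETP was 8.05. Rag1 was at 11.29 in replicate 7, against 8.63 to 9.77 in the others. 2010009J12Rik was at 5.14 in replicate 6, against 4.8 to 4.92, a gap of a dim probe. Their causes were not tested.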

How the results depend on the processing

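No paired analysis was possible because the labels give no replicate numbers. Slide, a batch from the array layout that does not pair animals, was fitted as a block instead and called 745 probes and 22 members for TN2 against ETP and 56 probes and 0 members between the tumour groups. Of the 150 members, 105 were chosen again with normexp correction or median scaling before scoring, 146 with all 16 thymocyte arrays, 106 by single arrays, 118 without slide 7 and 92 on slide 7 alone, and 111 to 143 with each array left out. Between the tumour groups, 79 probes were called, 22 without background correction and 25 without the filter on dim probes, and 17 to 98 with each array left out. Members called there were 3, and 0 without correction, without the filter or with slide as a block, and 0 to 3 with each array left out. The called share of the set there was 4% among the 75 highest scores and 1% among the 300 highest. For TN2 against ETP, 553 probes were called, 125 with median scaling and 176 to 5492 with each array left out, the latter without TN2 replicate 1. Members called were 17, 0 with median scaling and 10 to 50 with each array left out, and 7.33% of the 300 highest scores were called. For Rag-deficient T-ALL against ETP, 5151 probes and 72 members were called, 44 members with median scaling, 2804 to 6177 probes and 47 to 77 members with each array left out. For Rag-proficient T-ALL, 6848 probes and 87 members were called, 51 members with median scaling, 3545 to 7891 probes and 63 to 91 members with each array left out. Median scaling moved the median of all probes from -0.08 to -0.45 for TN2 against ETP, and from 0.04 to 0.3 and 0.03 to 0.23 for the tumour groups. The joint table as deposited, whose thymocyte rows are displaced, called 18642 and 19590 probes and 120 and 126 members, and turned ILMN_1247199 (0.39 and 0.42), Dnajc6 (0.23 on 1 probe in Rag-deficient, 0.26 and 0.66 in Rag-proficient T-ALL), Exoc6b (0.2) and Cd79b (0.34). With its rows put back, 4968 and 6668 probes and 69 and 86 members were called. Only the members named for the largest called changes were followed through the alternatives. Over these, 401 of the alternative values kept direction and call, 58 kept only direction and 7 turned, all in the joint table as deposited. The alternatives include a minimum of 2-fold, which all these changes exceed.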
